A study of Homo sapiens with 8 samples.

Results

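CYP2S1 and AXL are neighbouring genes on the plus strand of chromosome 19, and their RNA was examined here for enrichment by an antibody against RBPMS. Peaks were chosen by position alone. They overlap, on the plus strand and in build hg19, a 15 kb window over CYP2S1 from 41699 to 41714 kb or a 43 kb window over AXL from 41725 to 41768 kb. Of 194003 peaks listed over 4 libraries, 124 met this rule, 73 over CYP2S1 and 51 over AXL. The genes were picked because peaks there were already known to stand high above input, so their enrichment is described and not tested.

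CYP2S1 encodes a cytochrome P450, a haem enzyme that oxidises small molecules such as retinoids and lipid mediators and that is known mainly from epithelia. AXL encodes a receptor tyrosine kinase of the family that also holds TYRO3 and MERTK. It binds the secreted ligand GAS6 and is known for roles in cell survival, migration and the clearance of dying cells. RBPMS is an RNA-binding protein with an RNA recognition motif that is known to bind RNA with repeated CAC triplets and to act on splicing and on translation. In eCLIP, UV light fixes proteins to the RNA they touch, an antibody pulls down the protein with its RNA, and the RNA is sequenced beside input RNA that was not pulled down.

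All 8 libraries come from wild-type, untreated HUES6 cells, an established human embryonic stem cell line grown in FTDA medium. There are 4 eCLIP libraries, made with the RBPMS antibody, and 4 input libraries, made without antibody. Dishes of about 20M cells received 400 mJ/cm2 of UV light. The input libraries enter only through the deposited log2 fold and −log10 p of each peak, both set by the authors as immunoprecipitation over input.

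Libraries 1, 2, 3 and 4 listed 25759, 118375, 20254 and 29615 peaks in all. The read numbers of libraries 3 and 4 differed by no more than counting noise over 402 shared peaks (chi-square test, 1.09 for each degree of freedom, p = 0.095), where the other 5 pairs gave 6.40 to 12.8. They were counted as 1 sample, so each mean ± SD is over n = 3. The labels do not name separate cultures, and the spread between libraries may therefore be technical.

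The first question was how many listed peaks over each gene stood above input. A peak was called enriched with a log2 fold of at least 3, which is 8-fold, and a −log10 p of at least 3. Over CYP2S1 every listed peak was enriched, 13 of 13, 35 of 35, 12 of 12 and 13 of 13 in libraries 1 to 4. Over AXL the enriched peaks were 10 of 13, 12 of 19, 5 of 11 and 7 of 8. Among all listed peaks of the same libraries 15.9%, 5.38%, 12.6% and 12.7% were enriched. Since the genes were picked for their peaks, nothing is read from the distance between these shares.

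**Figure D1:**
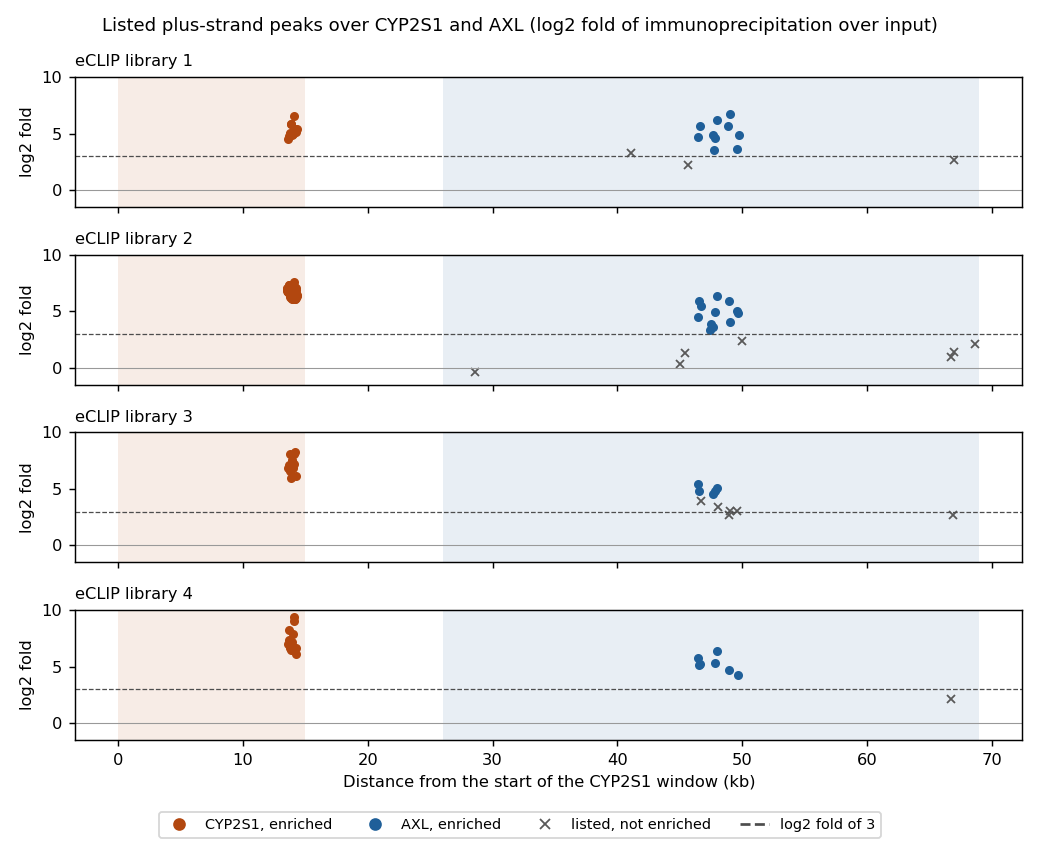
Log2 fold of immunoprecipitation over input (vertical axis) of each listed plus-strand peak, by its distance in kb from the start of the CYP2S1 window, with 1 panel per eCLIP library. Shaded bands are the CYP2S1 window (left) and the AXL window (right), dots are enriched peaks, crosses are other listed peaks and the dashed line is a log2 fold of 3. All 73 CYP2S1 peaks and 34 of 51 AXL peaks are enriched, in 1 narrow stretch of each window.

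Enrichment was narrow in both genes. In the CYP2S1 window it ran over 871 bases, from 41712499 to 41713369, near the window's end. No peak was listed in the 13498 bases before this stretch or in the 631 bases after it. In the AXL window the enriched peaks lay within 3416 bases near the middle, from 41745322 to 41748737. A further 20321 bases before that cluster and 19263 bases after it held listed peaks, none of them enriched. Which exon, intron or untranslated region these stretches fall in was not assigned, since no gene annotation of hg19 was used here.

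The surroundings on the same chromosome held no enriched peak. In the 11 kb between the windows and in the 15 kb before CYP2S1 no peak was listed on either strand in any library. The 43 kb after AXL held 31 listed plus-strand peaks over the 4 libraries, and none was enriched. Their highest log2 fold was 2.38, in library 2, and their highest −log10 p was 1.80, in library 1. On the minus strand, opposite to both genes, the 4 lists held 0 peaks in the CYP2S1 window and 0 in the AXL window.

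Within CYP2S1 the 73 peaks formed a nearly unbroken block. Enriched peaks that overlapped by 1 base or more, within or between libraries, were merged. A merged region was called reproducible when 3 or 4 libraries had an enriched peak in it. The window held 8 merged regions, 3 of which were reproducible, each of them enriched in all 4 libraries. The other 5 regions were single short peaks of library 2 that abut their neighbours. Over the whole genome 22.7% of 7472 merged regions were reproducible by the same rule. Of the 844 bases enriched in any library, 555 (65.8%) were enriched in all 4. Where at least 50% of the shorter peak had to be shared, the reproducible regions numbered 7, since the block was then divided into more pieces.

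The summit of the block lay in the middle region, 41712901 to 41713148. Its highest peak had log2 folds of 6.57, 7.58, 8.30 and 9.35 in libraries 1 to 4, a mean of 7.66 ± 1.13. These 4 peaks all began and ended between 41713091 and 41713148, so each library placed its CYP2S1 summit within the same short stretch. In library 4 that peak had the highest log2 fold of the entire list, and in libraries 1, 2 and 3 it ranked 49, 58 and 13. Among the 940 regions enriched in all 4 libraries the region ranked 8 by mean log2 fold, against a median of 5.02. The rank was taken with the highest peak of each region. With the mean over its peaks weighted by width, the region had 6.59.

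Upstream of the summit, the region from 41712566 to 41712873 had a log2 fold of 5.89, 7.29, 8.09 and 8.25 in libraries 1 to 4, a mean of 7.12 ± 1.15 and a rank of 25. Its order over the libraries was that of the summit, with library 1 lowest and library 4 highest. Downstream, the region from 41713179 to 41713369 had 5.41, 7.04, 6.18 and 6.62, a mean of 6.29 ± 0.82 and a rank of 87. Here library 1 was again lowest but library 2 was highest. The highest peak of the upstream region lay at 41712791 to 41712846 in library 1, at 41712637 to 41712706 in library 2, at 41712706 to 41712752 in library 3 and at 41712616 to 41712691 in library 4. These peaks were spread more widely than those of the summit in the middle region; in neither region did the highest peaks of all 4 libraries share a base. A trough of 27 bases, 41712874 to 41712900, separated the upstream and middle regions, and no library listed a peak in it.

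**Figure D2:**
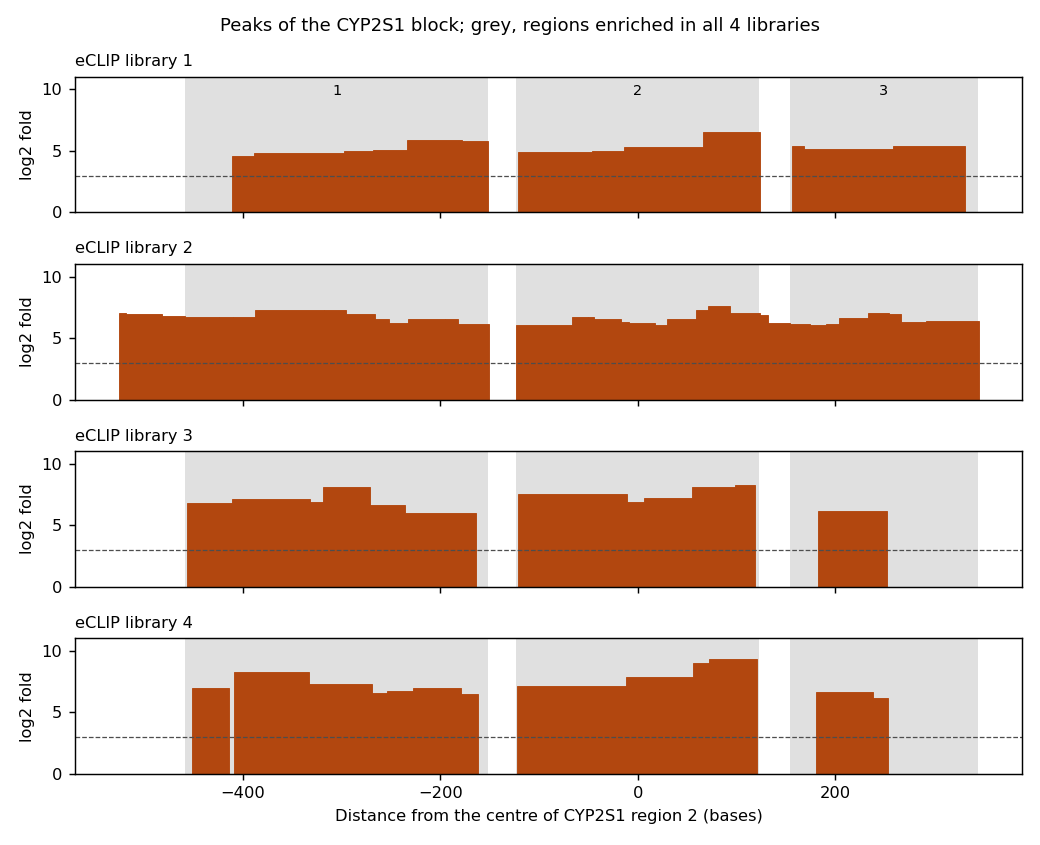
Log2 fold of immunoprecipitation over input (vertical axis, bars from 0) of the CYP2S1 peaks by distance in bases from the centre of the middle region, with 1 panel per eCLIP library; the width of a bar is the width of the peak. Grey bands numbered 1 to 3 are the regions enriched in all 4 libraries and the dashed line is a log2 fold of 3. The highest bar stands at the right end of region 2 in all 4 libraries, and the gap left of region 2 is empty in each.

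Library 1 stood lower than the others over the CYP2S1 block. Over the 555 bases enriched in every library its mean log2 fold was 5.27, where libraries 2, 3 and 4 had 6.69, 7.10 and 7.50. Over the 337 bases of AXL enriched in every library the means were 5.19, 5.40, 5.06 and 5.73. The 4 libraries thus spanned 2.22 log2 units over CYP2S1 and 0.67 over AXL. By sample the means were 6.42 ± 1.04 over CYP2S1 and 5.33 ± 0.12 over AXL. The difference between the genes was not tested. The CYP2S1 mean was above the AXL mean in each of the 4 libraries, and least so in library 1.

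The second question was what depth of reads stood behind these folds. Read numbers were derived from the log2 fold and p of each peak, either exactly or as the smallest numbers that could give both values. The enriched CYP2S1 peaks held medians of at least 295, 1478, 192 and 369 immunoprecipitation reads in libraries 1 to 4. The enriched AXL peaks held medians of at least 24.5, 44.5, 13 and 25 reads. Their median widths were 56, 22, 46 and 48 bases over CYP2S1 and 75.5, 78.5, 75 and 94 bases over AXL. The gene with the higher median read number thus had the narrower median width in every library. That order is one of gene medians and does not hold for each single peak. The deepest CYP2S1 peak, 41712637 to 41712706 in library 2, was 70 bases wide. It held at least 4051 immunoprecipitation reads and 27 input reads.

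At these smallest or exact numbers, input reads had a wider range over CYP2S1 than over AXL. They ran from 5 to 83 per enriched CYP2S1 peak in library 1 and from 5 to 43 in library 2. In libraries 3 and 4 they ran only from 1 to 7 and from 1 to 6. Over AXL they lay between 1 and 9 in all 4 libraries. The deposited values do not show whether an input of 1 was a counted read or stood in for 0. An input of 1 was the exact or smallest possible number for 20 of the 34 enriched AXL peaks and for 7 of the 73 CYP2S1 peaks.

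At 4 CYP2S1 sites and 1 AXL site, enriched peaks of libraries 1 and 2 lay on almost the same bases. At 1 of the CYP2S1 sites the reads of library 1 were exact. The peak of library 1 from 41712613 to 41712635 held exactly 148 immunoprecipitation reads over 20 input reads, a log2 fold of 4.55. The peak of library 2 from 41712614 to 41712636 held at least 1235 over 12, a log2 fold of 6.75. Library 2 thus had at least 8.34 times the immunoprecipitation reads of library 1 there. At the other 3 CYP2S1 sites both numbers were only the smallest possible, with ratios of 1.34, 1.06 and 4.55 that bound the true ratio on neither side. At the AXL site, with exact reads, library 2 held 23 and library 1 held 18, a ratio of 1.28. Over all shared peaks with exact reads the ratio was 2.87, with the first CYP2S1 site above it and the AXL site below it.

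Libraries 3 and 4, taken as 1 sample, could be set side by side in the same way over AXL. At the peak near 41745405 to 41745508 library 3 held exactly 20 immunoprecipitation reads and library 4 exactly 36. At the peak near 41746785 to 41746859 they held exactly 13 and 27, and at the peak near 41746906 to 41747025 exactly 31 and at least 57. Library 4 thus had 1.80, 2.08 and at least 1.84 times the reads of library 3, where over all shared peaks with exact reads it had 1.62 times as many.

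**Figure D3:**
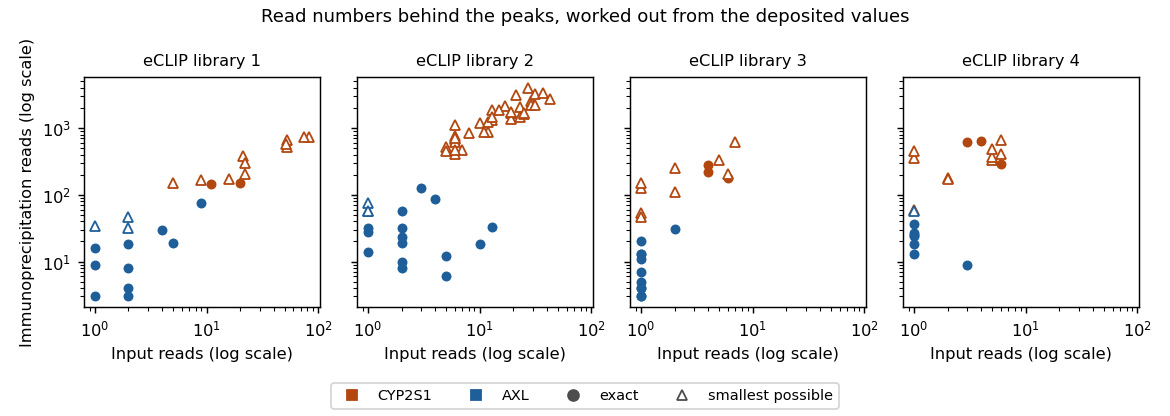
Immunoprecipitation reads (vertical axis) against input reads (horizontal axis), both on log scales, for each listed peak over CYP2S1 and AXL with a log2 fold above 0, by eCLIP library. Dots are read numbers that could be worked out exactly, and open triangles are the smallest numbers possible. At these numbers all CYP2S1 peaks stand above the AXL peaks of the same library, and library 2 reaches 4051 immunoprecipitation reads.

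The p values depended on the input reads as well as on depth. As inferred from the values, only peaks with at least 5 immunoprecipitation reads and 5 input reads could reach the cap. In library 4 the CYP2S1 peak from 41713013 to 41713080 held exactly 649 immunoprecipitation reads over 4 input reads and was below it. In library 1 the peak from 41712791 to 41712846 held at least 168 over 9 and was at it. All 35 CYP2S1 peaks of library 2 were at the cap of 400 that the authors' values reach, as were 11 of 13 in library 1, 3 of 12 in library 3 and 5 of 13 in library 4. The CYP2S1 block alone made up 5.12%, 16.5%, 11.5% and 10.2% of all enriched peaks at that cap in libraries 1 to 4. These shares count each piece of the block as a peak. The median width of its pieces was 56, 22, 46 and 48 bases, where that of all enriched peaks was 75, 89, 80 and 81. No AXL peak was at the cap. In libraries 2, 3 and 4 no enriched AXL peak had more than 4 input reads, so none of them could reach it. The counts at the cap therefore do not compare the depth of the genes or of the libraries. The highest −log10 p over AXL was 43.9, in library 1, for the peak from 41745322 to 41745553.

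The folds of the CYP2S1 summit were bounded more firmly from below than from above. In library 4 the summit rested on at least 447 immunoprecipitation reads over 1 input read, and its exact binomial 95% interval ran from a log2 fold of 6.86 to 14.7. In library 1 it rested on at least 150 over 5, with an interval from 5.32 to 8.22. The intervals were computed at the smallest read numbers, treat reads as independent and cover counting error only. The intervals of libraries 1, 2, 3 and 4 overlapped at the summit, the other 2 running from 6.45 to 9.03 and from 5.80 to 13.6.

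AXL showed several groups of regions in place of 1 nearly unbroken block. Of its 8 merged regions 6 were reproducible, 3 in all 4 libraries and 3 in 3 libraries. The other 2 were single peaks of library 2, at log2 folds of 3.31 and 3.87. The 6 regions were 91 to 435 bases wide, where the median of all reproducible regions was 168 bases. Of 1308 bases enriched in any library, 337 (25.8%) were enriched in all 4. Neither this share nor the 65.8% over CYP2S1 has a share over the whole lists beside it, so both are descriptions. Gaps of 610, 795 and 496 bases divided the regions into 4 groups. The regions from 41746744 to 41746885 and from 41746886 to 41747051 abut, and only the merging rule kept them apart.

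The highest AXL region enriched in all 4 libraries ran from 41746886 to 41747051, with 1 peak in each library. Its log2 folds were 6.22, 6.31, 5.04 and 6.38 in libraries 1 to 4, a mean of 6.08 ± 0.32. Library 3 stood apart, and the other 3 libraries lay within a narrow range. That peak held at least 47 immunoprecipitation reads over 2 input reads in library 1 and at least 76 over 1 in library 2. It held exactly 31 over 2 in library 3 and at least 57 over 1 in library 4. The region ranked 132 of 940, below all 3 CYP2S1 regions by this measure. Its order against the downstream CYP2S1 region was reversed under some alternatives. With the mean over the peaks weighted by width, CYP2S1 had 6.03 and AXL 6.08. Without library 2 they had 5.91 and 5.96. The order held under the other alternatives run.

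At the 5′ end of the cluster, the region from 41745322 to 41745756 was the widest. It had log2 folds of 5.67, 5.89, 5.41 and 5.71 in libraries 1 to 4, a mean of 5.71 ± 0.17, the smallest SD of the 9 reproducible regions of both genes, and a rank of 204. All 4 libraries stood close together there. With the mean over its peaks weighted by width in place of the highest peak, it was 5.16. The region from 41746744 to 41746885, next to the highest one, had 4.57, 4.92, 4.79 and 5.30, a mean of 4.84 ± 0.24 and a rank of 556. It was the lowest of the 3 and lay just below the median of 5.02 for regions enriched in all 4 libraries.

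The 3 AXL regions enriched in 3 libraries lacked library 3 or library 4. From 41747847 to 41748077 the log2 fold was 6.75 in library 1, 5.89 in library 2 and 4.71 in library 4, a mean of 5.79 ± 1.03 in which library 4 alone stood for the joint sample. The value of library 1 was the highest of any AXL peak in any library and ranked 30 in its list. It rested on at least 34 immunoprecipitation reads over 1 input read, with an interval from 4.18 to 12.1. Library 3 listed 2 peaks in that region, of 3 and 4 immunoprecipitation reads over 1 input read each. Library 3 needed 8 reads over 1 input read to pass both thresholds, more than either peak held.

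At the 3′ end of the cluster, the region from 41748574 to 41748737 had 4.84, 5.06 and 4.24 in libraries 1, 2 and 4, a mean of 4.71 ± 0.42 with library 4 alone for the joint sample. Library 3 again listed a peak there, with 4 immunoprecipitation reads over 1 input read and a log2 fold of 3.09. The narrowest region, from 41746624 to 41746714, had 4.84, 3.58 and 4.54 in libraries 1, 2 and 3, a mean of 4.32 ± 0.66. Library 4 listed no peak in it. Of the 9 reproducible regions of both genes it had the lowest mean.

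**Figure D4:**
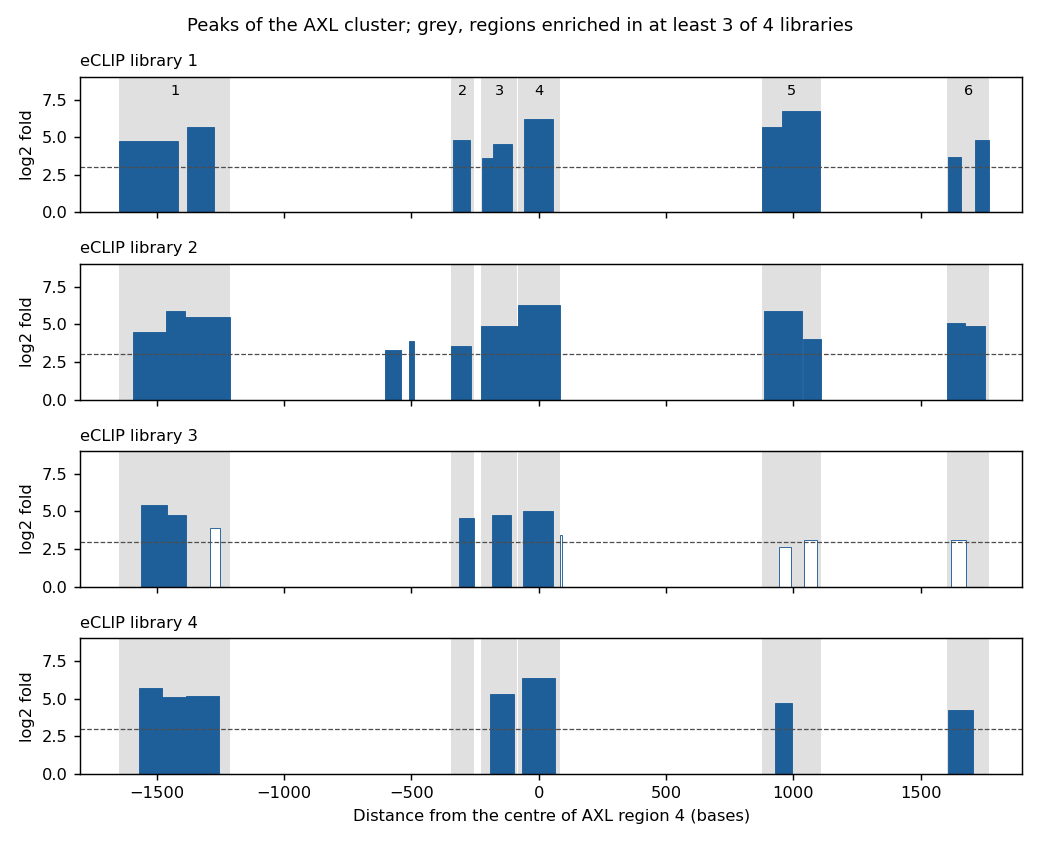
Log2 fold of immunoprecipitation over input (vertical axis, bars from 0) of the AXL peaks by distance in bases from the centre of region 4, with 1 panel per eCLIP library; filled bars are enriched peaks and open bars are other listed peaks. Grey bands numbered 1 to 6 are the reproducible regions and the dashed line is a log2 fold of 3. Regions 1, 3 and 4 hold filled bars in all 4 panels, and in regions 5 and 6 library 3 shows only open bars.

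The AXL summit fell in different places in the 4 lists, unlike that of CYP2S1. Libraries 2 and 4 had it at 6.31 and 6.38 in the region from 41746886 to 41747051. Library 1 had it at 6.75 in the region from 41747847 to 41748077, and library 3 at 5.41 in the region from 41745322 to 41745756. Their ranks in the whole lists were 393 and 286 for libraries 2 and 4, 30 for library 1 and 588 for library 3. The counting intervals of these 4 peaks were wide, from 3.79 to 11.6 and 3.84 to 11.7 in libraries 2 and 4, from 4.18 to 12.1 in library 1 and from 2.76 to 10.8 in library 3. Within each library the highest peaks of the other reproducible AXL regions lay inside that interval, apart from 3.58 for the region from 41746624 to 41746714 in library 2. In libraries 1, 2 and 4 the intervals were computed at the smallest read numbers and may be too wide. The order of the peaks was therefore not settled by them and was not tested. The same limit applies to the height of the CYP2S1 summit. Within each library the highest peaks of the other reproducible CYP2S1 regions lay inside the summit's interval, apart from 6.62 for the downstream region in library 4. Those intervals, too, were computed at the smallest read numbers, and that order was not tested.

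Taken by gene and library, the lowest enriched CYP2S1 peak had a log2 fold of 4.55, 6.04, 5.98 and 6.13 in libraries 1 to 4, and the highest AXL peak had 6.75, 6.31, 5.41 and 6.38. The ranges of the genes overlapped in libraries 1, 2 and 4 and were separate in library 3. The medians over enriched peaks were 5.18, 6.60, 7.00 and 7.01 over CYP2S1 and 4.84, 4.89, 4.79 and 5.19 over AXL. Both genes' medians were above those of all enriched peaks in the same lists, which were 4.47, 4.15, 4.54 and 4.45.

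**Figure D5:**
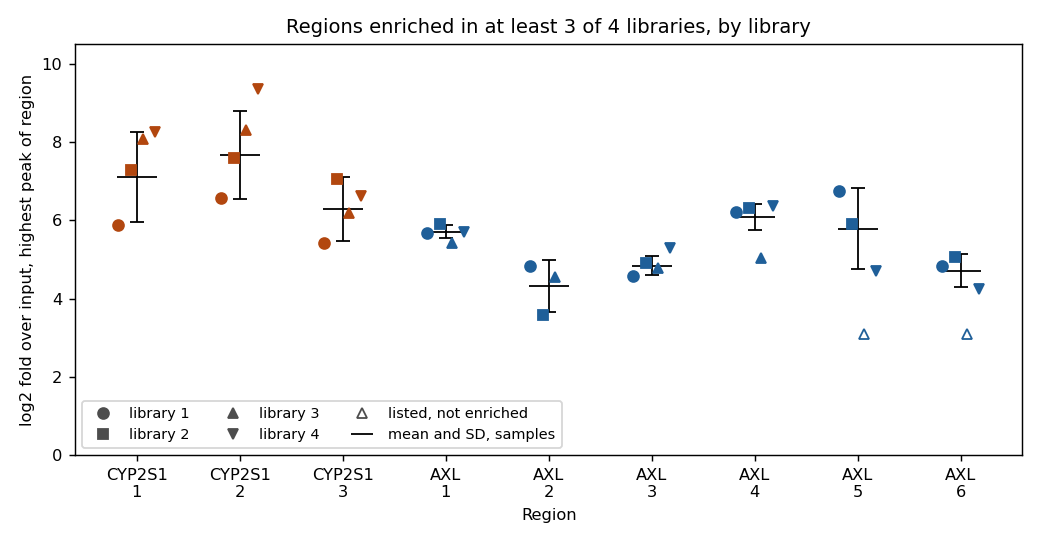
Log2 fold over input of the highest enriched peak (vertical axis, from 0) in each of the 9 reproducible regions of CYP2S1 and AXL, by eCLIP library, with the mean and SD over 3 samples as bars. Open triangles are peaks of library 3 that were listed but not enriched, and they do not enter the mean. Library 1 is the lowest point in all 3 CYP2S1 regions, and the libraries lie closest together in AXL region 1.

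The AXL peaks that missed the thresholds numbered 17, of which 16 had a log2 fold above 0. The peak closest to passing was in library 3, from 41745679 to 41745718, with 7 immunoprecipitation reads over 1 input read, a log2 fold of 3.89 and a −log10 p of 2.70. Just inside the thresholds lay a peak of library 2, from 41746459 to 41746477, with 14 reads over 1, a log2 fold of 3.87 and a −log10 p of 3.39. These 2 peaks had nearly the same fold and fell on opposite sides of the threshold on p.

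Towards the end of the AXL window a further stretch was listed in all 4 libraries without being enriched. Between 41765707 and 41766011, library 1 had a log2 fold of 2.67 and library 2 had 0.91 and 1.40 in 2 peaks. Library 3 had 2.67 and library 4 had 2.13. The deepest of these peaks, from 41765879 to 41766011 in library 2, held 33 immunoprecipitation reads over 13 input reads. Its interval, 0.44 to 2.45, lay below the threshold of 3, so in library 2 the depth was enough to place it under 8-fold. The peaks of the other 3 libraries rested on 3 to 9 immunoprecipitation reads.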

How the data were processed

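Peak lists of 4 eCLIP libraries were used. Their build is hg19, per the submitters' processing notes, and the sources used here name no aligner, peak caller or test. Each library has its own list, so peaks were called per library. Each list holds, as the authors deposited it, a −log10 p capped at 400 and a log2 fold of immunoprecipitation over input per peak.

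The windows, thresholds and regions named (all reproducible ones, those of all 4 libraries in full) were chosen with earlier results of these data known. Enriched peaks were merged genome-wide on each strand where they shared at least 1 base, and peaks that only abut stayed apart. A region's value in a library is its highest enriched peak.

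As inferred from the values, each log2 fold is the log2 of immunoprecipitation reads over input reads, shifted by 1 fixed amount in each library (input over immunoprecipitation depth 3.18, 1.04, 2.12 and 1.46). The p was inferred to come from Fisher's exact test, or from chi-square with continuity correction where both numbers reach 5 reads. Fisher's test was approximated by a binomial test that takes total reads to be far above those of a peak. Read numbers were taken where the fold and this p, within a relative tolerance of 0.003 on −log10 p, gave 1 solution. This was so for 90.8% to 98.4% of peaks with log2 above 0 and p below its ceilings of 15.7 and 400. At a ceiling the smallest possible numbers were taken. In simulated data 2118 of 2118 pairs came back, and all 1882 minima held. Those data followed the same inferred rules, so only the calculation was checked. Whether the authors used these rules was not tested. Libraries were compared over peaks sharing 80% of the longer peak with at least 40 reads together. Total reads per library are unknown. Python 3.11.15, pandas 2.3.3, numpy 2.4.6 and scipy 1.17.1 were used. Alternatives changed the thresholds, the shared bases, a region's value and the libraries used.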

Additional observations from a re-analysis of the deposited data

Results flagged for a closer look

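Over 18 quantities compared across the 4 libraries, 3 had 1 library far from the other 3, where its distance to the nearest divided by the whole range passed Dixon's limit for 4 values. Chance gives about 1 such value in 20, or 0.9 here, and libraries 3 and 4 are not independent. Over CYP2S1 library 2 listed 35 peaks where the others listed 12 or 13, a distance of 0.957 of the range. All of these were enriched, so its enriched peaks gave the same 0.957. They covered 844 bases in library 2 and 600 to 681 in the others, and their median width was 22 bases in library 2 and 46 to 56 in the others. In AXL region 4, from 41746886 to 41747051, library 3 had a log2 fold of 5.04 where the others had 6.22 to 6.38, a distance of 0.885 of the range. Its interval there, 3.07 to 8.15, included the values of the other 3 libraries.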

How the results depend on the processing

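No paired analysis was possible because the input libraries enter only through the deposited folds. The reproducible CYP2S1 regions numbered 7, in place of 3, where at least 50% of the shorter peak had to be shared, and stayed at 3 or 4 under every other alternative run. The AXL regions numbered 3, in place of 6, with all 4 libraries asked for, and 4 to 7 under the others. The median log2 fold of the AXL regions enriched in all 4 libraries was 5.71, and it moved by more than its SD of 0.17 to 5.16 with the width-weighted mean. Leaving out each library in turn gave 5.53 to 5.76. The 5.53, without library 4, was also a move of more than that SD. The same median over CYP2S1, 7.12, lay between 6.32 and 7.73 under all alternatives run. Enriched peaks per library averaged 18.25 over CYP2S1 and 8.5 over AXL, and stayed within 1.5 times of these, from 12.7 to 20.3 and from 7 to 9.67. Counting libraries 3 and 4 as 1 sample with at least 2 of 3 samples, chosen after seeing the data, kept the 3 and 6 regions. The causes were not tested. With an input of 1 read, the inferred fold depends only on the immunoprecipitation reads and the fixed shift of the library.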
